A study of Mus musculus with 6 samples.

Results

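The oocyte-secreted growth factors Gdf9, Bmp15, Bmp6 and Fgf8 were followed by gene symbol: for each, the brightest probe set that the array annotation gives to that symbol alone, by its mean over all arrays. All 4 had such a probe set, and each had only 1, among 19938 genes with at least 1. Levels came from pools of 100 oocytes at the germinal vesicle stage, before meiosis resumes, in 3 samples from females homozygous for a Brwd1 mutation and 3 from wildtype females. All mice shared the mixed B6/C3H background, were 2 to 6 months old and had received 5 IU of equine chorionic gonadotropin, a hormone that makes follicles grow, 44 h before collection. The labels name neither the mutant allele nor separate animals for the pools, so p-values measure the spread between these samples only, which may be technical.

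An oocyte does not grow passively inside its follicle. It secretes proteins of the transforming growth factor beta (TGF-beta) superfamily and of the fibroblast growth factor (FGF) family that act on the granulosa cells around it and, later, on the cumulus cells attached to it. GDF9 and BMP15 are closely related, are made almost only by oocytes in the mouse ovary, act as homodimers or as a joint heterodimer, and are best known for driving follicle growth, cumulus expansion and fertility. BMP6 is a bone morphogenetic protein made by the oocyte and also by other tissues, and FGF8 cooperates with BMP15 in the mouse to promote glycolysis in cumulus cells. All but FGF8 are cut from a larger precursor by proprotein convertases, bind paired type II and type I receptors and signal through Smad proteins, whereas FGF8 binds FGF receptor tyrosine kinases.

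Promoter sequence was found for only 2 of the 4 genes, Bmp15 and Bmp6, in RefSeq's GRCm38.p6 table, and both are shown. A link between base composition and level was not tested. Each line gives the 250 bases before the annotated start, 5′ to 3′ on the gene's own strand. Capitals mark CANNTG, the E-box that basic helix-loop-helix factors such as FIGLA and SOHLH1 recognise. They also mark the homeobox motifs TAATTA and TAATTG, of the kind NOBOX recognises. Both strands were searched, and matches were allowed to overlap.
Bmp15 (chrX:6320725-6320974, minus strand): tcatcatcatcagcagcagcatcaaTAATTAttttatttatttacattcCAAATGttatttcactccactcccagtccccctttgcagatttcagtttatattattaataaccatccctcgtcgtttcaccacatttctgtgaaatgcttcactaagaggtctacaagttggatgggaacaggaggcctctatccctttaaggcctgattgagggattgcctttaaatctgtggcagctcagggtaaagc
Bmp6 (chr13:38345466-38345715, plus strand): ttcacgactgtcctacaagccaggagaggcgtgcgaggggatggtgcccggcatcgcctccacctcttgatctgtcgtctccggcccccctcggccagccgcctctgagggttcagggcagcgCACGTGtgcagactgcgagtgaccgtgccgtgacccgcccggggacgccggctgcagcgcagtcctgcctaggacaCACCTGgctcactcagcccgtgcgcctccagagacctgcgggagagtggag
The Bmp15 window was 40.4% G and C with 2 CpG dinucleotides, and the Bmp6 window was 68.8% G and C with 22. The median of all 32851 promoter windows of this length was 52.4% and 6. Bmp15 held 1 TAATTA, which 4.84% of all windows hold, and 1 CANNTG, which 66.2% hold. Bmp6 held 2 CANNTG and neither homeobox motif (TAATTG was in 7.17% of all windows). A match describes the letters in this window and is not evidence of binding.

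The oocyte label was checked against marker genes. All 12 oocyte markers lay above a background guide of 4.48 on the log2 scale, the 95th percentile of 1210 probe sets of olfactory and vomeronasal receptors, and their mean level was 11.20 to 11.24 in mutant arrays and 11.21 to 11.25 in wildtype arrays. Of the granulosa and cumulus markers 8 of 14 lay above the guide, with mean levels of 4.96 to 5.10 in mutant and 4.84 to 5.02 in wildtype arrays, with Nr5a2, Gata4, Wt1 and Foxl2 among those above it and Fshr, Amh and Amhr2 among those below it. The brightest were far above it: Nr5a2, at means of 9.05 in mutant and 8.89 in wildtype arrays, and Gata4, at 8.17 and 7.87. Brwd1 was at 4.41, 4.56 and 4.50 in mutant 1, 2 and 3, against 8.91, 9.08 and 8.98 in wildtype 1, 2 and 3. RMA, the normalization behind these values, forces the arrays to a common distribution, so every difference below is relative to the other transcripts. Each pool held 100 oocytes and 1 ng of RNA was amplified, so a change in total RNA per oocyte would not be seen. For markers of other cells, fewer cells and less RNA per cell cannot be told apart.

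Gdf9 and Bmp15 were among the brightest genes of the oocyte in both genotypes. By mean level Gdf9 ranked 8 of 19938 genes in mutant and 11 in wildtype oocytes, and Bmp15 ranked 27 in mutant and 29 in wildtype oocytes. Their places hardly moved from array to array: Gdf9 was at rank 8 or 9 on each mutant array and at rank 10 on each wildtype array, and Bmp15 lay between ranks 24 and 28 on mutant arrays and between 29 and 31 on wildtype arrays. Bmp6 ranked 1798 in mutant and 1579 in wildtype oocytes, and Fgf8 ranked 4393 in mutant and 4408 in wildtype oocytes. Probe sets differ in how strongly they bind, so these ranks order signals on the array, not numbers of transcripts. All 4 lay above the background guide on all 6 arrays.

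None of the 4 growth factors passed the test between genotypes. The test was limma over all 23410 probe sets with a symbol, two-sided, with Benjamini-Hochberg adjustment and a threshold of 0.05, and it called 0.137% of probe sets. At an unadjusted p under 0.05, where 14.7% of all probe sets lie, 1 of the 4 was counted, Bmp6. Whether signals as bright as those of Gdf9 and Bmp15 still follow the number of transcripts was not tested. The fitted 95% intervals therefore cover differences in array signal, not in transcripts. On the log2 scale they run from -0.05 to 0.19 for Gdf9 and from -0.07 to 0.19 for Bmp15. They run from -0.36 to -0.02 for Bmp6 and from -0.32 to 0.21 for Fgf8. As changes in linear signal these are -3.46% to 14.1% for Gdf9, -4.58% to 13.9% for Bmp15, -22.0% to -1.45% for Bmp6 and -19.9% to 16.0% for Fgf8.

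Gdf9, whose loss in mice arrests follicles at the primary stage, was at 12.08, 12.10 and 12.07 in mutant 1, 2 and 3, against 12.02, 12.02 and 12.00 in wildtype 1, 2 and 3. The groups did not overlap, but the gap between them was 0.05, and the spread within a group was about as narrow as the 2 decimals of the table allow. Mutant minus wildtype came to 0.07 on the log2 scale (SE 0.051, n = 3 each), with an adjusted p of 0.565 in limma. That SE is larger than the gene's own spread, 0.015 in mutant and 0.012 in wildtype arrays (SD, n = 3 each), because limma draws each gene's variance toward that of all probe sets.

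Bmp15, its X-linked relative, was at 11.69, 11.75 and 11.69 in mutant arrays, against 11.63, 11.64 and 11.68 in wildtype arrays. Here the lowest mutant arrays stood 0.01 above the highest wildtype array. This gave 0.06 on the log2 scale (SE 0.054, n = 3 each), with an adjusted p of 0.641 in limma.

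Bmp6 had the largest difference of the 4 and the other direction. It was at 9.20, 9.14 and 9.25 in mutant arrays, against 9.29, 9.49 and 9.38 in wildtype arrays, so that every mutant array was below every wildtype array, by 0.04 at the nearest. The means were 9.20 ± 0.055 in mutant and 9.39 ± 0.10 in wildtype oocytes (SD, n = 3 each), which is -0.19 on the log2 scale (SE 0.071; adjusted p of 0.291 in limma, unadjusted p = 0.0325). Although its interval leaves out 0, the difference did not survive adjustment over all probe sets.

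Fgf8, the dimmest of the 4, was at 7.82, 7.69 and 7.65 in mutant arrays, against 7.90, 7.89 and 7.53 in wildtype arrays. The groups overlapped, since wildtype 3 was the lowest of all arrays and the other two wildtype arrays were the highest. The fitted difference was -0.05 on the log2 scale (SE 0.11, n = 3 each; adjusted p of 0.856 in limma), and its sign rested on single arrays: it was -0.175 without wildtype 3 and 0.01 without wildtype 1.

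**Figure D1:**
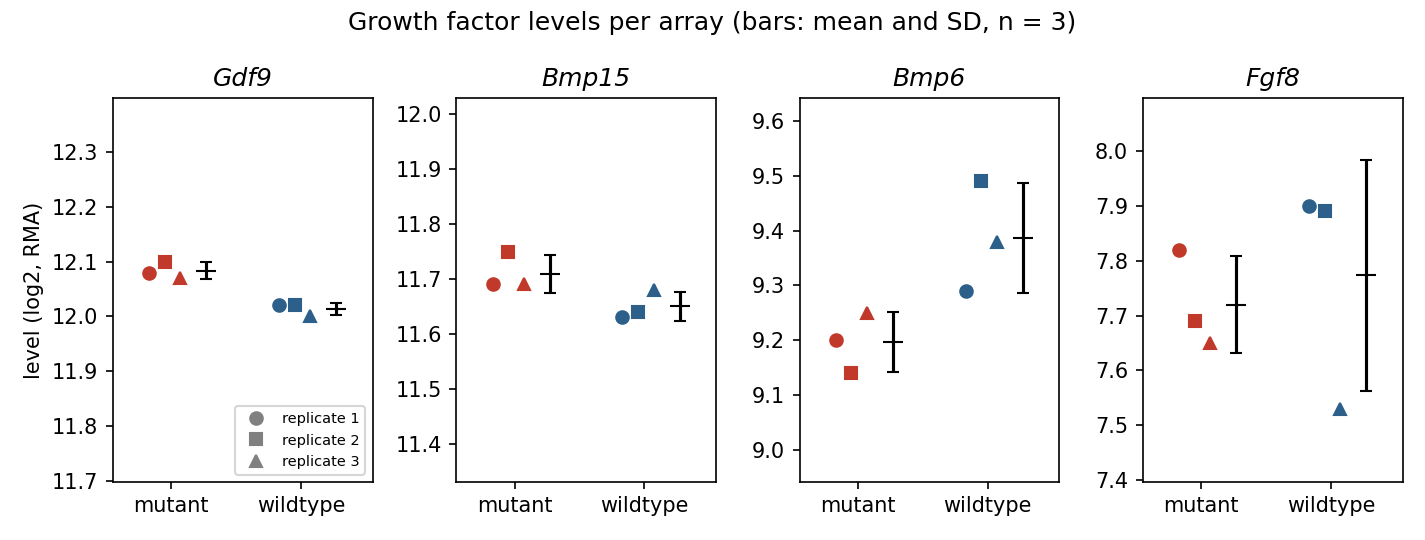
Level of each growth factor on each array (y axis, log2 RMA level, the same span in every panel; points, arrays by replicate number; bars, mean and SD, n = 3), with mutant to the left of wildtype. Gdf9 and Bmp15 lie slightly higher and Bmp6 lower in mutant arrays, and Fgf8 overlaps because wildtype 3 is at 7.53.

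Groups that do not overlap were found for 3 of the 4 genes, against 19.7% of all 23410 probe sets, and for Gdf9 and Bmp15 this depended on how the arrays were scaled. After centring each array on its median only Bmp6 still had separate groups, and after a further quantile normalization Gdf9 overlapped while Bmp15 and Bmp6 did not. After cyclic loess the same 3 genes were separate. The array medians, 4.69 to 4.79, lay just above the background guide of 4.48, and centring on them shifts bright and dim genes of an array alike. Median centring brought the log2 difference of Gdf9 to 0.013 and that of Bmp15 to 0.0033, against a median over all genes of -0.043 in that setting and 0.013 as deposited. For Bmp6 the difference lay between -0.25 and -0.16 in these settings, and the smallest adjusted p over all settings was 0.219 (limma, after median centring). These scalings were applied to the non-overlap count after seeing the data. Among the 100 brightest genes, where Gdf9 and Bmp15 lie, 46 were higher and 53 lower in mutant oocytes, with a median difference of -0.0033, and 37% had groups that did not overlap.

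**Figure D2:**
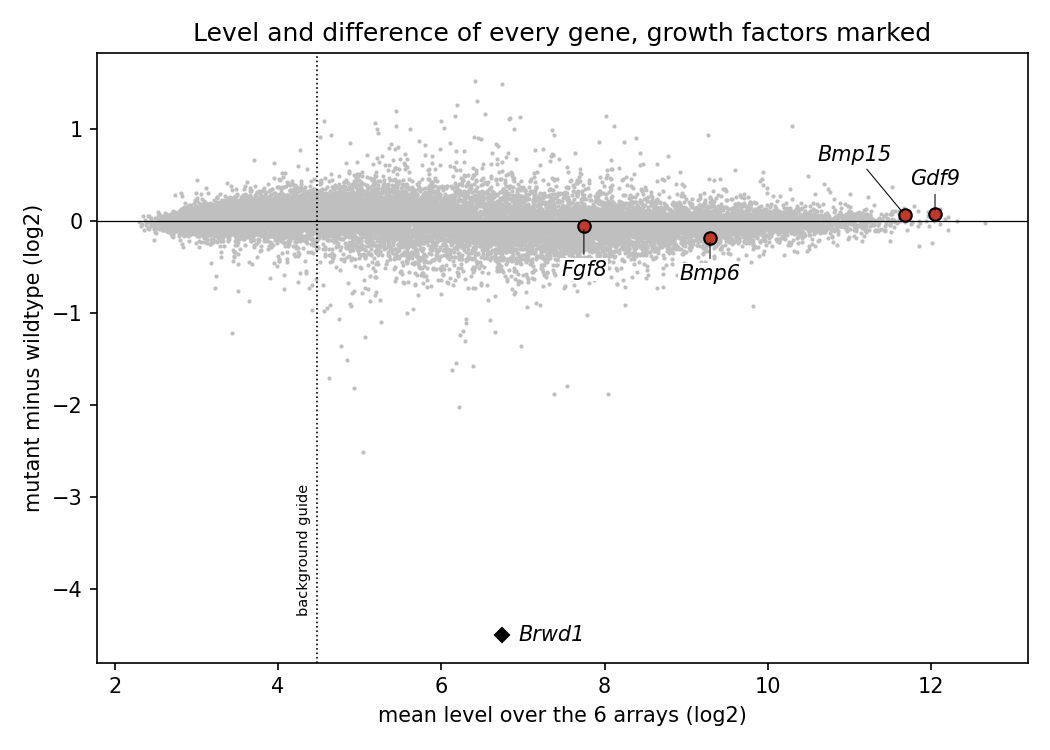
Each grey point is a gene (19938 in all), by its mean level over the 6 arrays (x axis, log2) and its mutant minus wildtype difference (y axis, log2); the dotted line is the background guide of 4.48. The 4 growth factors lie close to 0, with Gdf9 and Bmp15 at the bright end, while Brwd1 is at -4.50.

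Because the array scale is shared, the balance between growth factors was also read within each array, where a common offset drops out. Gdf9 exceeded Bmp15 by 0.39, 0.35 and 0.38 in mutant arrays, against 0.39, 0.38 and 0.32 in wildtype arrays. The ranges of this signal difference overlapped, and the mutant minus wildtype value was 0.01 (exact permutation test, two-sided, p = 0.6). Gdf9 exceeded Bmp6 by 2.88, 2.96 and 2.82 in mutant arrays, against 2.73, 2.53 and 2.62 in wildtype arrays, so every mutant array lay above every wildtype array. That difference was 0.26 (exact permutation test, two-sided, p = 0.1, adjusted p = 0.3), and for Bmp15 against Bmp6 it was 0.25 with the same p-values. The 3 pairs with Fgf8 differed by 0.12 for Gdf9, 0.11 for Bmp15 and -0.14 for Bmp6, with overlapping groups. Adjustment was over all 6 pairs, and 3 samples against 3 cannot give a p below 0.1, so no pair could pass. The pairs share members and the same arrays.

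The other genes of these pathways are given from lists by role, each gene by its brightest probe set, and none of them passed over all probe sets. Among all genes the median difference was 0.013, and 53.4% were higher in mutant oocytes. Among the 12662 genes with a mean above the background guide the median was -0.0033 and 48.8% were higher, so genes below the guide leaned higher. The sign of most list medians depended on the scaling: after median centring those of convertases, antagonists, TGF-beta superfamily receptors, Smads, cumulus and granulosa targets, oocyte regulators, oocyte markers and theca markers lay below 0. Of 28 other TGF-beta superfamily ligands, 13 lay above the guide. Of all 28, 18 were higher, 8 lower and 2 equal, with a median of 0.075 as deposited and of 0.016 to 0.023 under the 3 other scalings. Those with the smallest p-values were Lefty1 at 0.15, Tgfb2 at 0.15, Nodal at 0.17 and Gdf2 at 0.15 (limma, adjusted p = 0.282 to 0.422). Of these only Tgfb2, a TGF-beta isoform, lay above the background guide, at 9.68, 9.67 and 9.71 in mutant arrays against 9.56, 9.44 and 9.61 in wildtype arrays. Of 21 other genes of the FGF family, which include the intracellular Fgf11 to Fgf14 beside the secreted ligands, 15 were higher and 6 lower (median 0.063), and the smallest p-values belonged to Fgf23 at 0.23, Fgf12 at 0.15, Fgf1 at 0.27 and Fgf6 at 0.19 (limma, adjusted p = 0.273 to 0.411). Of the 21 genes 10 lay above the guide, and Fgf12 and Fgf6 lay below it.

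Precursor cleavage and extracellular inhibition showed no call either. Furin, a convertase of the secretory pathway and the brightest of 7 measured, was at 9.10, 9.20 and 9.09 in mutant arrays, against 9.13, 9.05 and 9.17 in wildtype arrays, and the groups overlapped. Mbtps1, the site-1 protease, was at 6.04, 6.15 and 6.23 in mutant arrays, against 6.53, 6.55 and 6.48 in wildtype arrays. Its groups stood apart, and mutant minus wildtype was -0.38 on the log2 scale (SE 0.067; adjusted p of 0.122 in limma). Pcsk7 was at -0.23, Pcsk5 at 0.21 and Pcsk4 at 0.08, but without wildtype 1 the first 2 were at -0.12 and 0.028. Of 15 measured antagonists, 12 were higher and 3 lower (median 0.027). Chrdl1, a BMP-binding relative of chordin, had the largest difference, 1.03 (SE 0.38; limma, adjusted p = 0.287), with levels of 6.25, 5.12 and 6.52 in mutant arrays against 4.49, 4.96 and 5.34 in wildtype arrays. Mutant 2 lay within the wildtype range. The sclerostin gene Sost was at 0.18, Dand5 at -0.20 and Grem1, which encodes gremlin, at 0.28.

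Receptors were measured in pools of oocytes, whereas the growth factors act mainly on surrounding cells. Whether their signal came from the oocytes or from other cells in the pools was not tested. Of 14 TGF-beta superfamily receptors, 10 were higher and 4 lower (median 0.043), and 12 lay above the guide. Bmpr1b, a type I receptor of BMP15 and the brightest of the list, was at 9.34, 9.17 and 9.22 in mutant arrays, against 9.00, 9.09 and 9.14 in wildtype arrays. Bmpr1a, another type I BMP receptor, ran the other way, at 7.89, 7.96 and 7.87 in mutant arrays against 8.02, 8.41 and 8.08 in wildtype arrays. Both had separate groups, with log2 differences of 0.17 for Bmpr1b and -0.26 for Bmpr1a (limma, adjusted p = 0.342 and 0.323). The Bmpr1a value was -0.14 without wildtype 2. Amhr2, the receptor of anti-Müllerian hormone, was at 0.19 but lay below the background guide. The co-receptor gene Eng was at 0.14, with means just above the guide, at 4.79 in mutant and 4.64 in wildtype arrays. Of the 5 FGF receptors, Fgfr2 was the brightest and was at 0.11, Fgfr1 at -0.13, Fgfrl1 at 0.057 and Fgfr3 at 0.063 (limma, adjusted p = 0.483 to 0.810).

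No Smad gene passed, and Smad5 and Smad9 had the smallest p-values of the list. Smad5, which carries BMP signals, was at 7.34, 7.21 and 7.36 in mutant arrays, against 6.79, 6.74 and 7.09 in wildtype arrays. Smad9, of the same BMP branch, was at 6.39, 6.22 and 6.33 in mutant arrays, against 5.87, 5.80 and 6.20 in wildtype arrays. In both genes every mutant array was above every wildtype array, wildtype 3 being the nearest, with log2 differences of 0.43 (SE 0.10; limma, adjusted p = 0.171) and 0.36 (SE 0.11; limma, adjusted p = 0.245). Smad1, the other member of the BMP branch, was at 0.077, with overlapping groups (limma, adjusted p = 0.771). The transcriptional repressor gene Ski was at 0.16, Smad2, which carries GDF9 and activin signals, at -0.12, and Smurf2, a ubiquitin ligase and the brightest of the 12, at -0.087. In all, 9 of the 12 were higher and 3 lower (median 0.048).

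Genes known to respond to these factors in cumulus and granulosa cells were measured here in pools of oocytes, so their levels are not a readout of that response. None of them passed, although Id3 had the largest difference of all listed genes. Id3, a BMP target that encodes an inhibitor of helix-loop-helix factors, was at 6.86, 6.37 and 6.98 in mutant arrays, against 5.59, 5.51 and 5.69 in wildtype arrays. The groups stood 0.68 apart, and the log2 difference was 1.14 (SE 0.16; limma, adjusted p = 0.0808). It passed in 2 alternative settings, at adjusted p = 0.0320 with trended robust variances and 0.0404 without mutant 2, over a range of 0.0320 to 0.231. Among the other cumulus and granulosa targets, Ptgs2, the prostaglandin synthase of cumulus expansion, was at -0.57, Has2, the hyaluronan synthase, at 0.49 and Id2 at 0.55 (limma, adjusted p = 0.252 to 0.407). The Id2 value was 0.26 without wildtype 2 and 0.80 without wildtype 3. Of that list's 14 genes 10 were higher and 4 lower (median 0.042), and 8 lay above the guide.

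Of 8 genes of FGF feedback and response, Etv5, an ETS factor induced by FGF signalling, was at 8.46, 8.16 and 8.45 in mutant arrays, against 7.78, 7.45 and 7.29 in wildtype arrays. The groups were separate, and mutant minus wildtype was 0.85 on the log2 scale (SE 0.14; adjusted p of 0.122 in limma) and 0.48 at the gene's other probe set. The feedback inhibitor genes Spred1, Spry2 and Spry1 were at -0.43, 0.21 and -0.36 (limma, adjusted p = 0.220 to 0.349), and Spry2 was below the background guide. In all 5 were higher and 3 lower (median 0.14), again as measured in pools of oocytes.

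**Figure D3:**
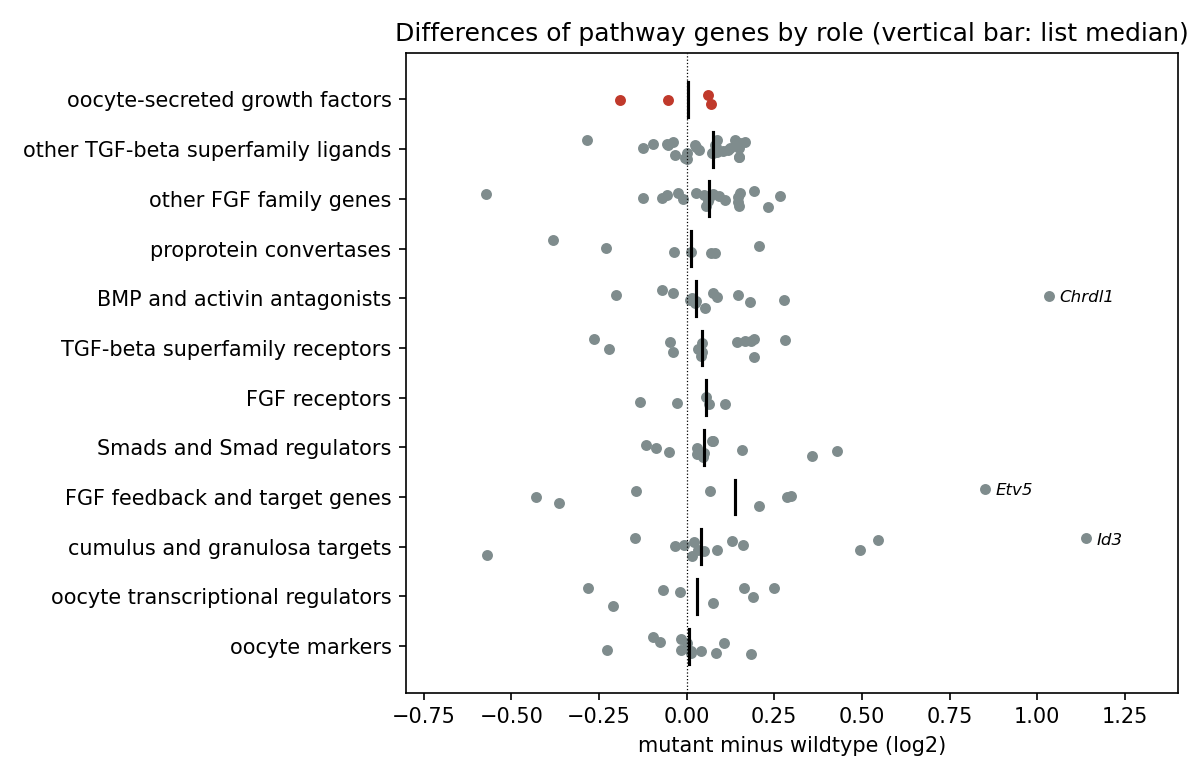
Mutant minus wildtype difference (x axis, log2) of every measured gene of each pathway list (points; vertical position within a row is only to separate them), with the list median as a bar. The 4 growth factors span -0.19 to 0.07. Chrdl1, Etv5 and Id3 lie above 0.8 and did not pass the test.

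The transcription factors that control oocyte genes were measured beside the growth factors. Nobox, a homeobox factor needed for Gdf9 and Bmp15 transcription in mice, was at 11.13, 11.18 and 11.16 in mutant arrays, against 11.04, 11.10 and 11.10 in wildtype arrays. It was slightly higher in every mutant array, by 0.077 on the log2 scale (SE 0.054; limma, adjusted p = 0.551), and by 0.02 after median centring. Sohlh1 was at 0.25, Taf4b at -0.28, Lhx8 at 0.16, Sohlh2 at -0.21 and Figla at 0.19 (limma, adjusted p = 0.230 to 0.505). The Figla value was 0.057 without mutant 1, and that of Sohlh2 was -0.088 without mutant 2. Nr6a1, the nuclear receptor GCNF that represses Gdf9 and Bmp15 in mice, was at 8.89, 8.61 and 8.70 in mutant arrays, against 8.64, 8.81 and 8.81 in wildtype arrays, and overlapped. Of these 8 genes 4 were higher and 4 lower. Of 12 oocyte markers 6 were higher, 5 lower and 1 equal (median 0.0067), with Kit at -0.23, Zar1 at 0.18, Dppa3 at 0.11 and Nlrp5 at -0.097 (limma, adjusted p = 0.252 to 0.446).

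Markers of other cells gave no call. The counts below include genes under the background guide, where genes in general leaned higher. Of 14 granulosa and cumulus markers 8 lay above the guide and 11 were higher (median 0.080), with Gata4 at 0.29, Amhr2 at 0.19, Foxl2 at 0.11 and Amh at 0.15. That median was 0.023 to 0.029 under the 3 other scalings and 0.019 to 0.118 without single arrays. Of 7 theca and stroma markers 2 lay above the guide and 5 were higher (median 0.050), with Col1a1 at 0.12, Pdgfra at 0.12, Col1a2 at 0.087 and Cyp17a1 at 0.05. Of 9 blood, immune and endothelial markers 8 were higher (median 0.097, and 0.040 to 0.055 under the 3 other scalings), with C1qb at 0.90, C1qa at 0.18, Csf1r at 0.19 and Pecam1 at 0.18, and their mean level was 4.87 to 5.02 in mutant against 4.69 to 4.81 in wildtype arrays. Only 5 of these 9 lay above the background guide, and Csf1r was not among them. The adjusted p-values of all these markers were 0.162 or more (limma). Their part in the values of Id3, Etv5 and the Smad genes was not tested.

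**Figure D4:**
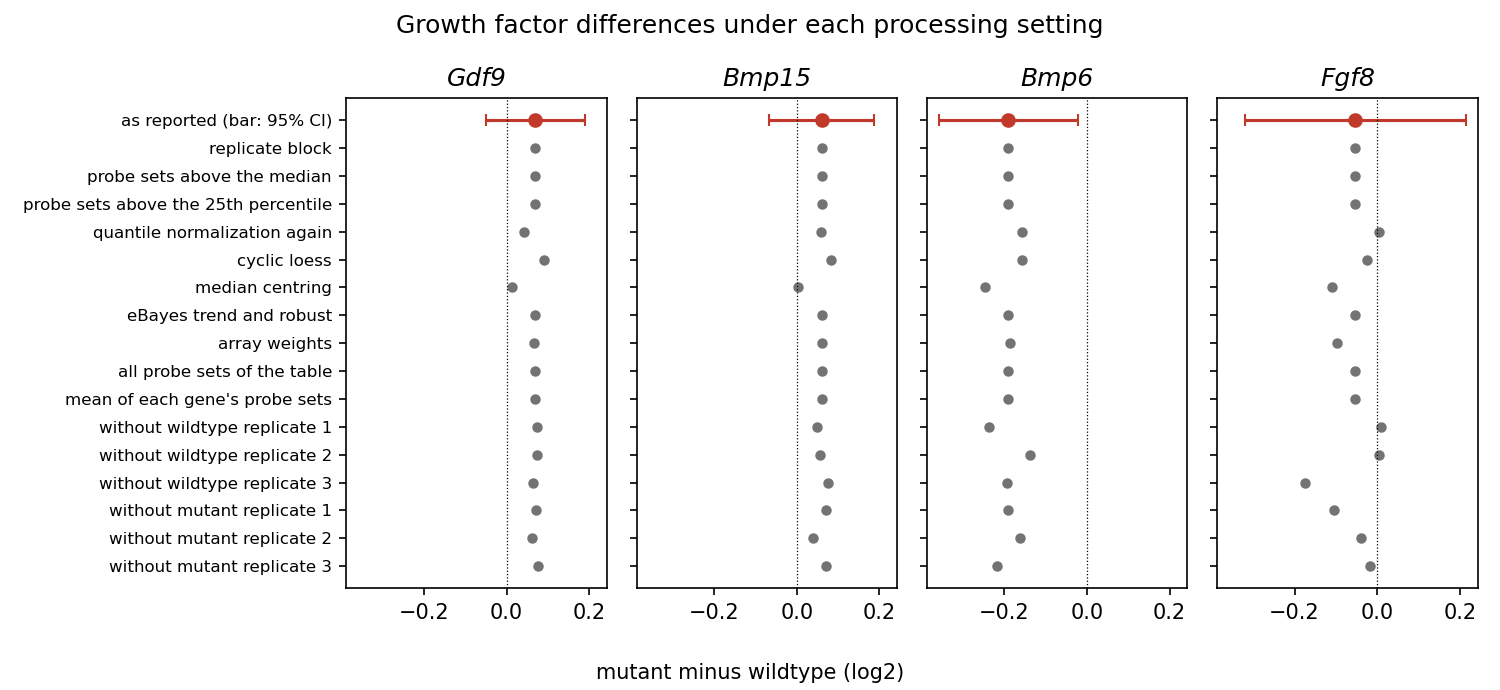
Mutant minus wildtype difference (x axis, log2) of each growth factor as reported, with its 95% interval, and under each processing alternative and omission of an array (rows). Bmp6 stays below 0 and Gdf9 and Bmp15 above 0 in every row, and Fgf8 lies on both sides of 0. For Bmp6, Gdf9 and Bmp15 only the rows with another scaling could have changed the sign.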

How the data were processed

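Per the labels' protocols, 1 ng of total RNA per pool was amplified with the NuGEN Ovation Pico system and labelled with biotin, and each sample was read on its own array. The deposited values are log2 levels. Per the submitters' processing notes, the authors made them with Affymetrix Expression Console 1.1 and RMA; the log2 scale was read from the values (2 decimals, maximum 13.05), and no genome build is named in the labels or the table. Of 35556 probe sets, 21789 had 1 gene symbol, 1621 had several and 12146 had none listed; 21698 of the single-symbol ones matched RefSeq identifiers. Samples were grouped by title. Differences were fitted with limma 3.58.1 in R 4.3.3 on 23410 probe sets with a symbol, without covariates or a filter, and pairs of members were compared with scipy 1.17.1. The number of arrays limits the precision. On simulated data with 23410 probe sets, the mutant against wildtype fit recovered 51.2% of log2 changes of 0.5 and 86% of changes of 1. The simulated data also held changes of 2 and 4, and the number of planted changes was chosen. Because the Benjamini-Hochberg cutoff depends on that number, these rates need not hold for the real comparison, which called 32 probe sets.

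The members and lists were chosen with earlier results of these data known. Genes named are the members, Brwd1, Nobox, Figla, Lhx8, Sohlh1 and Nr6a1, the 4 smallest limma p-values of each list, the brightest receptor, Smad and convertase genes, and the 3 genes most correlated with each member; Fshr, Wt1, Nr5a2 and Smad1 were added after their values were seen. List genes without a single-symbol probe set were not analysed here. The alternatives were the replicate block, filters on dim probe sets, other scalings, other eBayes settings, array weights, all probe sets, gene means and the omission of each array.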

Additional observations from a re-analysis of the deposited data

How the results depend on the processing

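With 3 arrays per group, small differences limit what can be called. Gdf9, Bmp15 and Bmp6 kept their direction under all 16 alternatives and omissions, and none of the 4 growth factors passed in any. For Gdf9, Bmp15 and Bmp6, whose groups did not overlap, leaving out or reweighting arrays cannot turn the sign. The block, filters, eBayes settings, all probe sets and gene means leave their differences unchanged, so only the 3 other scalings could have turned it. Fgf8 was at 0.0039 after a further quantile normalization and at -0.175 to 0.01 when single arrays were left out. The count of called probe sets, 32, was 1 with the replicate block, 1 over all probe sets of the table, 15 over gene means, 76 with trended robust variances, and 1 to 18 without single arrays. Replicate numbers gave no sign of pairing: same-numbered deviations correlated at -0.0015, -0.031 and 0.036, and not every sample correlated best with its own number. Deviations were taken from means of 3 arrays, so these correlations depend on each other and cannot exclude pairing. The Gdf9 to Bmp15 comparison was at -0.017 after quantile normalization and -0.012 to 0.023 without single arrays. Wildtype ranks over all single-symbol probe sets were 14 for Gdf9, 39 for Bmp15, 1895 for Bmp6 and 4971 for Fgf8, and that of Gdf9 was 10 to 11 without single wildtype arrays.

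After median centring the list medians were -0.053 for the growth factors, 0.0067 for other FGF family genes, -0.043 for convertases, -0.03 for antagonists, -0.013 for TGF-beta receptors, -0.0083 for Smads, 0.08 for FGF response genes, -0.028 for oocyte regulators, -0.05 for oocyte markers and -0.0067 for theca markers, and 1 growth factor had separate groups. Quantile normalization gave 0.02 for other FGF family genes and 0.082 for TGF-beta receptors, and cyclic loess 0.0201 for other FGF family genes. Without single arrays the medians ran from -0.056 to 0.03 for the growth factors, -0.013 to 0.11 for antagonists, 0.023 to 0.11 for TGF-beta receptors, -0.025 to 0.093 for FGF receptors, 0.062 to 0.14 for FGF response genes, -0.0025 to 0.12 for cumulus targets and -0.023 to 0.017 for oocyte markers. Single genes that turned were Cyp17a1 (-0.0067) and Furin (-0.043) after median centring, Nr6a1 after quantile normalization (0.027) and cyclic loess (0.013), and, without single arrays, Furin (-0.022 to 0.04), Grem1 (-0.023 to 0.47), Fgfrl1 (-0.025 to 0.13) and Nr6a1 (-0.098 to 0.042). For alternatives whose construction does not show it, the cause was not tested.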

Other observations

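The genes whose levels followed each growth factor most closely over the 6 arrays are given as a description, by Pearson's r among 12661 other genes above the background guide. They were Cd276, Asb13 and Pdlim3 for Gdf9 (r = 0.994, 0.994 and 0.991), Dkk3, Tle3 and Panx2 for Bmp15 (r = 0.989, 0.987 and 0.985), Kcnn4, Gmps and Mms19 for Bmp6 (r = 0.993, 0.993 and 0.990), and Cox4i1, Mroh1 and Sgsm1 for Fgf8 (r = 0.989, 0.985 and 0.981). With so few arrays many genes correlate this closely: r was above 0.9 for 264 genes with Gdf9, 146 with Bmp15, 199 with Bmp6 and 99 with Fgf8. All points share the 6 arrays and their scaling.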
